A study of Homo sapiens with 14 samples.

Results

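RH30 cells that carried the hairpin labelled shKDM4B-814 were compared with RH30 cells that carried the control hairpin, labelled shCtrl, by ATAC-seq. Every sample with either label was taken, 2 libraries each, which makes 4 of the 14 samples of the series. ATAC-seq inserts sequencing adapters into open DNA with the Tn5 transposase, so that a peak marks a stretch of accessible chromatin. RH30 is an established line of alveolar rhabdomyosarcoma, a childhood tumour of the muscle lineage, and carries the PAX3-FOXO1 fusion gene. Both hairpins were delivered by transduction and the cells were collected at 72 h, with 100000 cells per library. The other 10 libraries were 2 each of RH30 with hairpin shKDM4B-813, RH30 with 0.1% DMSO, RH30 with 200 nM of the KDM4 inhibitor QC6352, and LHCN, an immortalised human myoblast line, with an empty vector or with PAX3-FOXO1 for 72 h. The sources used here do not say whether the transduced cells were a pool or a clone, whether replicates were separate cultures, or how far KDM4B was reduced. The p-values below thus compare single libraries, and their spread can be technical. No time is given for the DMSO and QC6352 libraries, and their labels name no hairpin. Differences between these and the hairpin libraries thus cannot be told apart from effects of transduction, time or experiment.

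KDM4B is a histone demethylase of the KDM4 family. It removes methyl groups from lysines of the histone H3 tail, among them a mark of closed, silent chromatin, and QC6352 inhibits this enzyme family. In rhabdomyosarcoma the fusion protein PAX3-FOXO1 binds enhancers and holds them accessible, and the comparison asks which accessible sites depend on KDM4B in such cells.

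The labels of the hairpin libraries conflict with names written inside the deposited lists. In the 2 lists labelled shKDM4B-814 every peak carries the name shCtrl, in the 2 labelled shCtrl it carries sh813, and in the 2 labelled shKDM4B-813 it carries sh814. The replicate numbers match, and in the other 8 lists name and label match. The sources used here do not settle which is right. Groups follow the labels throughout, and the libraries are called "shKDM4B-814-labelled", "shCtrl-labelled" and "shKDM4B-813-labelled". If the names inside the lists hold, the comparison is that of a control hairpin with hairpin shKDM4B-813, and every gained region below would be lost with KDM4B knockdown and every lost region gained. As a measurement beside the labels, the overlap of peak-bearing regions (Jaccard index, 1 for identical sets, over 202912 regions) with the 2 DMSO libraries of RH30 averaged 0.569 for the shKDM4B-814-labelled, 0.527 for the shKDM4B-813-labelled and 0.445 for the shCtrl-labelled libraries.

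The shKDM4B-814-labelled lists held 99660 and 93488 peaks, and the shCtrl-labelled lists 135927 and 146395. Each was trimmed to its 93488 strongest peaks by −log10 q. The weakest peak kept had a −log10 q of 4.81 and 2.21 in the shKDM4B-814-labelled lists and of 5.39 and 6.19 in the shCtrl-labelled lists. Peaks just inside and just outside that limit did not differ in the shCtrl-labelled lists, since 1145 of 15215 and 7755 of 14963 peaks with that exact value were kept, by position. Read depth is not known from peak lists, and in bulk chromatin a site open in fewer cells and a site less open in each cell cannot be told apart.

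Overlapping peaks were merged into 152137 regions. Of these, 10270 (6.75%) were gained, with a peak in both shKDM4B-814-labelled and neither shCtrl-labelled list, and 10282 (6.76%) were lost, with the reverse. A further 43467 (28.6%) had a peak in all 4 lists. Both directions follow the labels and would swap under the names inside the lists. Equal list lengths favour equal counts in the 2 directions. The calls are counts by a rule of presence, and no p is given for them, since an exact permutation test of 2 libraries against 2 cannot go below 0.33. The Jaccard index was 0.598 between the shKDM4B-814-labelled libraries, 0.550 between the shCtrl-labelled libraries and 0.466 on average between the groups.

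Gained and lost regions differed in width. Gained regions were narrow, with a median of 303 bp and quartiles of 256 and 386 bp. Lost regions had a median of 666 bp and quartiles of 452 and 982 bp, close to the 643 bp of regions present in all 4 lists. Over all regions the median was 362 bp. Only 0.0779% of gained regions reached 1 kb, against 24.3% of lost regions, 26.8% of those present in all 4 and 11.3% of all regions. Peaks were wider in the shCtrl-labelled libraries as a whole, where 11.02% and 12.8% of the trimmed peaks reached 1 kb, against 4.62% and 4.29% in the shKDM4B-814-labelled libraries. In regions present in all 4 lists, 8.93% and 8.34% of the peaks reached 1 kb in the shKDM4B-814-labelled and 15.1% and 17.3% in the shCtrl-labelled libraries. Yet the peak was wider in both shKDM4B-814-labelled lists in 24.8% of these regions and in both shCtrl-labelled lists in 25.8%. Regions present in all 4 also merge the peaks of more lists, so their widths are not a like measure. The part of the library difference in the widths of the called regions was not tested.

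**Figure D1:**
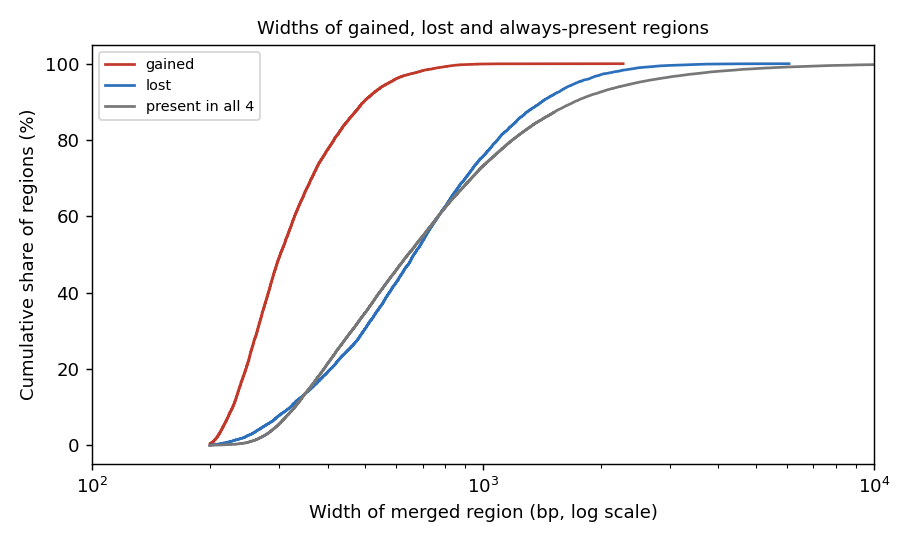
Cumulative share of regions (vertical axis, %) by width of the merged region (horizontal axis, bp, log scale, shown up to 10 kb) for gained, lost and always-present regions. The curve of gained regions rises to the left of the others, with a median of 303 bp, and the lost and always-present curves lie close together, with medians of 666 and 643 bp.

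The 2 classes also lay in different parts of the genome. Chromosomes 16, 17, 19 and 22, which are rich in genes, held 38.0% of the lost and 5.76% of the gained regions, against 18.6% of all regions. Chromosomes 4, 13, 18 and X, which are poor in genes, held 2.15% of the lost and 14.3% of the gained regions, against 8.07% of all. Of the lost regions 49.9% lay within 10 Mb of the outermost listed peak at either end of a chromosome, against 12.7% of the gained and 26.8% of all. A lost region had a median of 216 regions in its own 1 Mb window, a gained region 38 and any region 84.

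Chromosome 19 stood at one end of the range, with 16.02% of its regions lost and 1.35% gained. Chromosome 22 had 14.2% lost and 1.27% gained, and chromosome 17 had 13.7% lost and 2.01% gained. At the other end chromosome 6 had 14.2% gained and 0.625% lost. Chromosome 18 followed with 13.3% gained and 0.712% lost, and chromosome X with 12.7% and 1.26%. Gained exceeded lost regions on 13 chromosomes and lost exceeded gained on 10. Only chromosome 15, with 5.15% gained and 5.24% lost, changed sides when peaks tied at the limit were kept in random order (5.41% and 4.78%). In that order the lost share of chromosome 1 was 6.71%, against 8.17% when ties were kept by position. The lead of chromosome 6 also depended on the ties. In random order chromosome 18 had the highest gained share, 13.98%, and chromosome 6 had 13.2%.

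**Figure D2:**
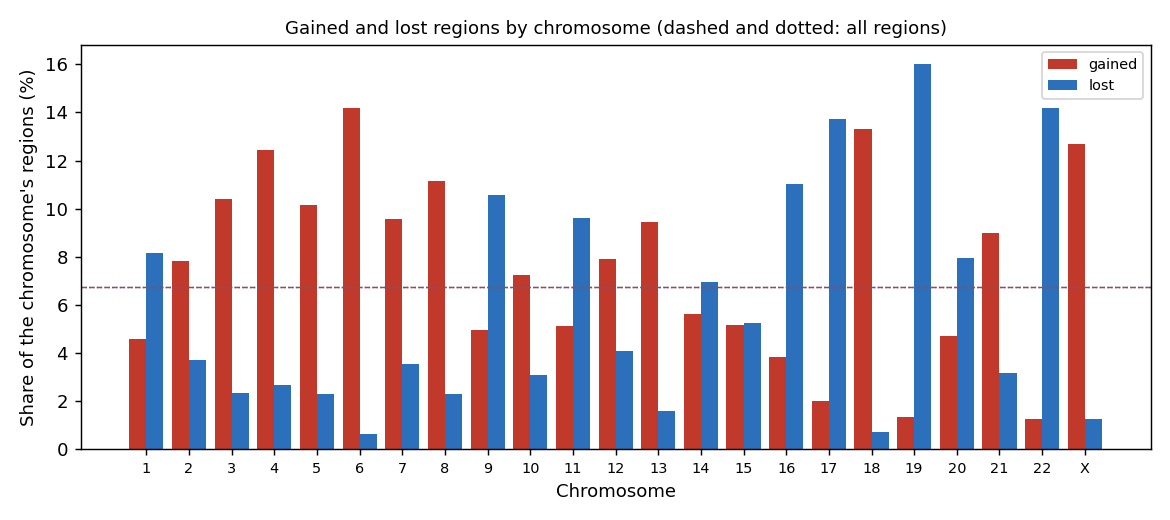
Share of each chromosome's merged regions (vertical axis, %) that was gained (red bars) or lost (blue bars); the horizontal lines mark the shares over all regions, 6.75% and 6.76%. Lost bars are highest on chromosomes 17, 19 and 22 and gained bars on chromosomes 6, 18 and X.

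The whole lists moved in the same way. Peaks on chromosomes 16, 17, 19 and 22 made up 22.2% and 23.1% of the trimmed shCtrl-labelled lists and 13.5% and 15.5% of the shKDM4B-814-labelled lists. The share was 12.9% and 14.6% with DMSO, 10.9% and 14.8% in the shKDM4B-813-labelled lists and 18.5% and 17.5% with QC6352. The shCtrl-labelled libraries were thus the highest of the 10 RH30 libraries on these chromosomes, and the shKDM4B-814-labelled libraries lay near DMSO. The part of this list-wide shift in the single calls was not tested.

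On the scale of 1 Mb windows the gains had one leading stretch, and the losses had several. The 5 windows with the most gained regions all lay on chromosome 6 between 68000001 and 75000000 (hg19). From 72000001 to 73000000, 104 of 470 regions were gained and 0 lost. From 73000001 to 74000000 it was 97 of 467 and 0 lost, and from 68000001 to 69000000 it was 67 of 250 and 0 lost. The windows from 71000001 to 72000000 and from 74000001 to 75000000 held 53 and 51 gained and 4 lost regions each.

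Taken over the 7 Mb from 68000001 to 75000000, a stretch picked after these windows were seen, 437 of 2448 regions (17.9%) were gained and 9 lost. The remainder of chromosome 6 had 12.4% gained, so the high share there was not limited to that stretch. The shKDM4B-814-labelled lists held 1892 and 1752 peaks in the stretch and the shCtrl-labelled lists 897 and 726. There were 1792 and 1285 with DMSO, 1212 and 1229 in the shKDM4B-813-labelled lists and 1116 and 1273 with QC6352. All RH30 libraries stood far above the 179 to 204 peaks of the 4 LHCN libraries. The stretch is thus dense in peaks in RH30 whatever the treatment, and among the RH30 libraries it was least dense in the shCtrl-labelled ones. DNA copy number was not analysed here.

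The windows with the most lost regions lay near chromosome ends. On chromosome 19, from 1000001 to 2000000, 141 of 448 regions were lost and 0 gained, and from 1 to 1000000 it was 109 of 345 and 1 gained. On chromosome 1, from 2000001 to 3000000, 120 of 436 regions were lost. On chromosome 17, from 79000001 to 80000000, it was 108 of 380, and on chromosome 16, from 1000001 to 2000000, 102 of 348, each with 0 gained. In the first of these, on chromosome 19, the shCtrl-labelled lists held 425 and 463 peaks and the shKDM4B-814-labelled lists 174 and 185. The same window held 101 and 126 peaks with DMSO, 92 and 201 in the shKDM4B-813-labelled lists and 230 and 272 with QC6352. Here the shCtrl-labelled libraries were above every other RH30 library. Windows were picked by count, which favours those with many regions. Tied peaks kept by position came from chromosome 1 first, and then in the order of chromosome names read as text. Names that begin with 1 thus came before all others. This favours lost calls on the early chromosomes and works against them on the late ones, such as chromosome 6. With ties in random order its lost share fell from 8.17% to 6.71%, and window counts in that order are not given. Of the 2095 windows with at least 20 regions, 1521 had more gained than lost and 481 more lost than gained, so gains were spread thinly over many windows and losses were packed into few.

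Most called regions were weak peaks. Strength is given as the within-list percentile of the strongest peak of the region, 100 being the top of the trimmed list. Gained regions had a median percentile of 41.4 and 38.0 in the shKDM4B-814-labelled libraries, and lost regions 34.1 and 27.3 in the shCtrl-labelled libraries. Regions present in all 4 lists had medians of 74.3 to 76.4. Among regions with a peak in both shKDM4B-814-labelled lists, 37.0% of those whose lower-of-2 percentile was up to 20 were gained, 19.6% between 40 and 60, and 0.0464% (7 of 15077) above 80. For lost regions, by the lower of the 2 shCtrl-labelled percentiles, the shares were 49.6%, 14.5% and 0.00696% (1 of 14370). No region with a lower-of-2 percentile above 90 was called in either direction.

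A missing peak in a trimmed list can be a weaker peak in the list as deposited. Of the gained regions, 73.96% had no peak in either deposited shCtrl-labelled list and 5.20% had one in both. Of the lost regions, 94.5% had none in the deposited shKDM4B-814-labelled lists, the second of which is the shortest and was not trimmed. In the lists as deposited, which differ in length, 7851 regions were gained and 27472 lost. A rule that asked for a peak among the 50000 strongest in both libraries of one group and none in the deposited lists of the other left 1756 gained and 1006 lost regions. Leaving out 1 library loosens the rule: gained counts were 23817 and 28679 without the first or second shKDM4B-814-labelled library, and lost counts were 30299 and 29842 without the first or second shCtrl-labelled library and 15438 without the second shKDM4B-814-labelled library.

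The leading gained regions were short and were open in most RH30 libraries outside the comparison. The 10 with the highest lower-of-2 percentile were 265 to 609 bp wide, at percentiles 78.8 to 91.9 in the shKDM4B-814-labelled libraries, with authors' fold values of 12.5 to 20.5 over background. On chromosome 3 from 94110219 to 94110653 the percentiles were 89.8 and 91.9 in the shKDM4B-814-labelled libraries, and neither deposited shCtrl-labelled list had a peak. The same region stood at 85.1 and 69.0 with DMSO, at 79.4 and 84.5 in the shKDM4B-813-labelled libraries and at 57.8 and 85.0 with QC6352. It had no peak in LHCN. All RH30 libraries except the shCtrl-labelled pair were thus open at this site.

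The second, on chromosome 2 from 82062459 to 82063052, behaved differently in the DMSO libraries. It was at 89.8 and 85.5 in the shKDM4B-814-labelled, 90.6 and 95.0 in the shKDM4B-813-labelled and 70.6 and 91.9 in the QC6352 libraries. With DMSO there was no peak in 1 library and a weak one, at percentile 13.3, in the other. Among the 10 it was the one region without a peak in both DMSO libraries. The others had a peak in both, and 8 of the 10 had a peak in all 6 of the other RH30 libraries.

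On chromosome 5 from 31232403 to 31232699 the shKDM4B-814-labelled libraries were at 82.4 and 81.9, DMSO at 60.1 and 54.4 and the 4 LHCN libraries at 28.6 to 51.6, so this site was open in the myoblasts too. On chromosome 18 from 40533267 to 40533577 the shKDM4B-814-labelled libraries were at 88.9 and 80.8 and DMSO at 75.7 and 81.7, while QC6352 had no peak in 1 library and 30.3 in the other. The site had no peak in LHCN. On chromosome 6 from 126623287 to 126623779, outside the dense stretch, all 12 libraries other than the shCtrl-labelled pair had a peak. The remaining leading gains lay on chromosomes 4 (20249727 to 20250046 and 124974885 to 124975360), 11 (23333597 to 23333865), 12 (93729963 to 93730571) and 10 (25197966 to 25198230). The second chromosome 4 region was the only one of the 10 with a weaker peak in a deposited shCtrl-labelled list. Altogether 5 of the 10 had a peak in all 4 LHCN libraries and 5 in none.

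The leading lost regions were wider, weaker within their lists and mostly without a peak in the other trimmed lists. The 10 were 372 to 1646 bp wide, at percentiles 74.6 to 85.8 in the shCtrl-labelled libraries, with authors' fold values of 9.29 to 12.5. On chromosome 9 from 130526041 to 130526827 the shCtrl-labelled libraries were at 85.8 and 85.4, and neither deposited shKDM4B-814-labelled list had a peak. There was no peak in the shKDM4B-813-labelled libraries or in the first DMSO library, 49.5 in the second DMSO library and 27.5 and 53.9 with QC6352. The site was thus also open, at lower rank, in some libraries of the compound experiment.

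Also on chromosome 9, the region from 138148648 to 138149707 was at 75.9 and 76.4 in the shCtrl-labelled libraries and had no peak in any of the other 12 trimmed lists. A weaker peak was in the first deposited shKDM4B-814-labelled list there. A region of chromosome 1 (1095506 to 1096884) and one of chromosome 14 (105848353 to 105849998) were alike. In these the shCtrl-labelled libraries were at 77.8 and 74.6 and at 81.1 and 74.6. Outside them, each had a peak only in the second QC6352 library, at 46.5 and 41.9. On chromosome 16 from 2023442 to 2024024 the values were 75.9 and 81.0, with peaks in the first DMSO library at 44.9, the second QC6352 library at 78.1 and the second shKDM4B-813-labelled library at 30.2. Of the 10 leading losses none had a peak in both DMSO libraries, 5 had it in 1 and 5 in neither, and 9 had no peak in LHCN. The other leading losses lay on chromosomes 9 (137604531 to 137605244), X (1415680 to 1416073), 14 (106173401 to 106173772), 17 (43039254 to 43039723) and 19 (2771685 to 2772632).

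**Figure D3:**
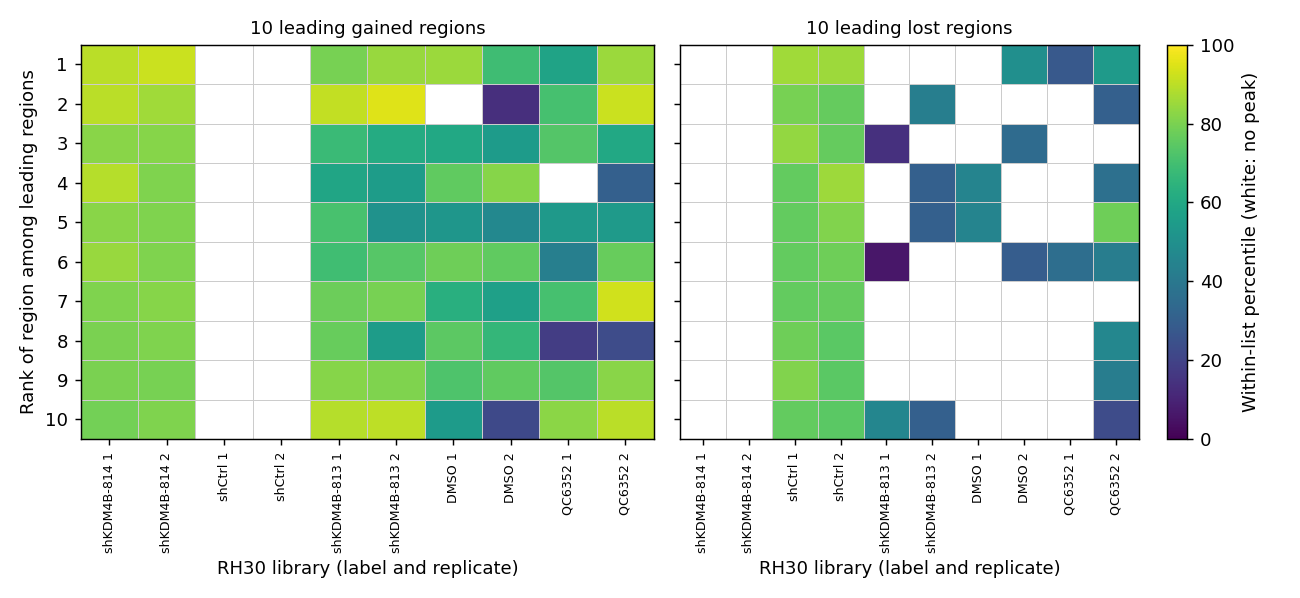
Within-list percentile (colour scale, 0 to 100; white where the trimmed list has no peak) of the 10 leading gained regions (left) and the 10 leading lost regions (right), by rank on the vertical axis and RH30 library on the horizontal axis. The gained regions are coloured in most DMSO, QC6352 and shKDM4B-813-labelled libraries, and the lost regions are mostly white there.

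The same contrast held for the whole classes in libraries that the calling rule did not use. With DMSO, 63.6% ± 5.45 (mean ± SD, n = 2) of the gained and 16.3% ± 3.93 of the lost regions had a peak, against 51.0% ± 0.151 of all regions. Both DMSO libraries had a peak in 51.6% of the gained regions and neither in 24.3%. For the lost regions these shares were 9.31% and 76.7%, and for all regions 44.5% and 42.6%. Gained regions thus had a peak more often, and lost regions less often, than regions in general in each of the 2 DMSO libraries. Both classes require a peak in 2 lists, which all regions do not, so all regions are not a matched baseline. With DMSO a peak was found in 95.7% of regions present in all 4 lists and in 31.5% of the 88118 regions of other patterns. When the DMSO libraries took the place of the shCtrl-labelled ones as the control, a choice made after seeing the data, the shKDM4B-814-labelled libraries gained 4725 and lost 7663 of 142760 regions. The shCtrl-labelled libraries set against DMSO by the same rule, in longer lists of 105136 peaks, gained 13882 and lost 16464 of 173461 regions.

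In the shKDM4B-813-labelled libraries 70.7% ± 7.05 of the gained and 13.4% ± 10.0 of the lost regions had a peak, against 48.7% ± 0.406 of all. The single values were 75.7% and 65.8% for the gained and 6.37% and 20.5% for the lost regions, so the first shKDM4B-813-labelled library lay further from the shCtrl-labelled pair than the second in both classes. Compared with each other by the same rule, the shKDM4B-813-labelled and shKDM4B-814-labelled libraries differed in fewer regions, 8476 with a peak only in the former and 4805 only in the latter, of 144160.

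The QC6352 libraries differed from each other in both classes. Of the gained regions 49.3% and 56.7% had a peak in the 2 QC6352 libraries, against 67.5% and 59.8% with DMSO. For the lost regions the values were 25.5% and 48.5% with QC6352, against 13.5% and 19.1% with DMSO. Over all regions the shares were 44.9% and 52.1% with QC6352 and 50.9% and 51.1% with DMSO, so the gained regions stood only slightly above the level of all regions in each QC6352 library. In both classes the QC6352 libraries did not overlap the DMSO libraries, and 2 against 2 allows no exact permutation p below 0.33. Region by region, 11.2% of the lost regions had a peak in both QC6352 and neither DMSO library and 2.40% had the reverse, against 3.97% and 5.80% of all regions. Among the gained regions it was 5.21% and 11.1%.

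LHCN myoblasts separated the classes further. The share of gained regions with a peak was 43.8% ± 0.324 with the vector and 50.8% ± 0.110 with PAX3-FOXO1, against 34.5% ± 0.0734 and 38.3% ± 0.267 of all regions. For the lost regions it was 6.56% ± 0.151 and 6.30% ± 0.371. A peak in all 4 LHCN libraries was found in 37.9% of gained and 4.202% of lost regions, against 30.4% of all regions. No peak in any of the 4 was found in 43.0% and 91.0%, against 57.4% of all regions. Lost regions were also the class more often seen in the shCtrl-labelled libraries alone: 31.5% of them, 3234 regions, had no peak in any of the 10 libraries outside the comparison, against 4.68% (481) of the gained regions and 23.5% of all regions.

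These shares depended on the length of the lists. In the lists as deposited the share of lost regions with a peak was 38.6% in the shKDM4B-813-labelled libraries, 60.0% with QC6352 and 14.3% in each LHCN group, and it was 25.9% with DMSO. The share of gained regions was 82.3% in the shKDM4B-813-labelled libraries, 60.9% with QC6352, 57.9% and 66.6% in LHCN with the vector and with PAX3-FOXO1, and 70.3% with DMSO. In the second QC6352 library, whose deposited list of 176899 peaks is the longest, 83.1% of the lost and 69.4% of the gained regions had a peak, so that the order of the classes was reversed there. The gained regions stayed above the lost regions in each of the other 9 libraries outside the comparison.

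**Figure D4:**
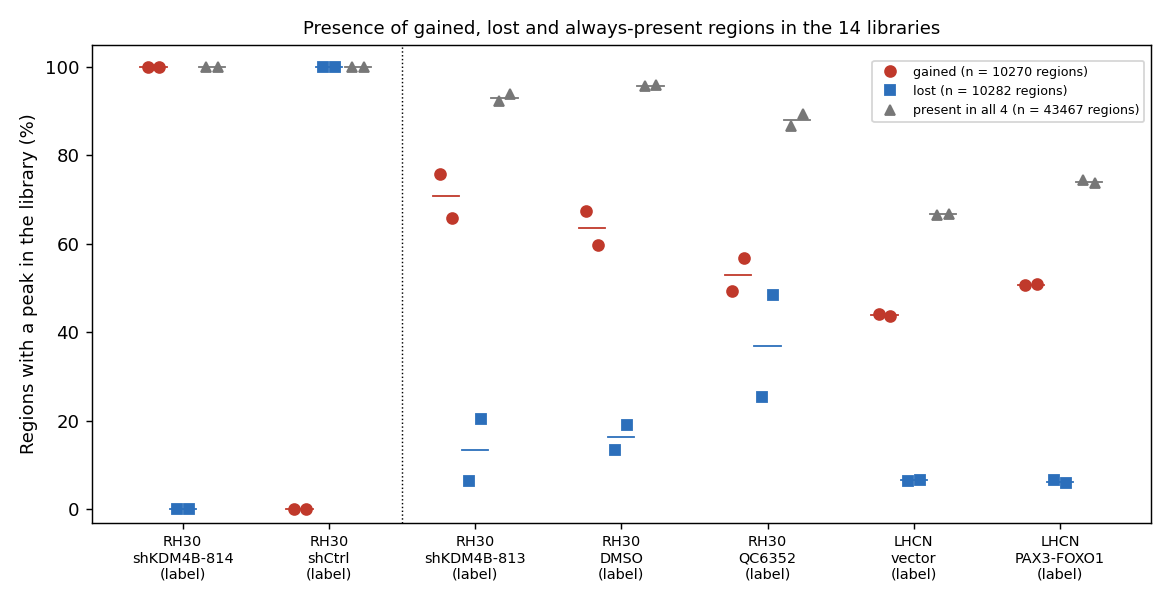
Share of gained, lost and always-present regions with a peak (vertical axis, %) in each of the 14 libraries, grouped by label on the horizontal axis; points are libraries and short lines are group means. The groups left of the dotted line define the classes, so their values of 0 and 100 are set by the rule. To its right the gained regions lie above the lost regions in every library, as trimmed to equal length.

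Among the 43467 regions with a peak in all 4 lists, differences in rank were graded and few passed a test. Here too higher and lower follow the labels and would swap under the names inside the lists. The percentile of each region was turned into a normal score, the quantile of the normal distribution at that percentile, and compared with limma, with Benjamini-Hochberg adjustment over all 43467 regions. By limma, 15 regions (0.0345%) ranked higher and 14 (0.0322%) lower in the shKDM4B-814-labelled libraries at an adjusted p under 0.05, and 3621 (8.33%) and 4269 (9.82%) did at an unadjusted p under 0.05. Without the first or the second shKDM4B-814-labelled library 0 regions passed in each direction by limma (1049 and 1687 higher and 2330 and 3251 lower at an unadjusted p under 0.05). Without the first or second shCtrl-labelled library the counts were 2426 and 1628 higher and 1133 and 754 lower. In these fits the lone library of a group was assumed to vary like the other group, and with no mean-variance trend and no robust prior limma passed 0 regions in either direction (2921 higher and 4046 lower unadjusted).

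The 15 regions that ranked higher were 292 to 1444 bp wide (median 467 bp). The largest difference was on chromosome 1 from 103659594 to 103660060. Its percentiles were 89.8 and 89.5 in the shKDM4B-814-labelled and 22.6 and 15.0 in the shCtrl-labelled libraries, a normal-score difference of 2.15 (SE 0.35, limma adjusted p = 0.0441). DMSO stood at 86.9 and 76.3 and the shKDM4B-813-labelled libraries at 70.7 and 78.1, all nearer to the shKDM4B-814-labelled pair. On chromosome 11 from 27263266 to 27263662 the shKDM4B-814-labelled libraries were at 92.3 and 93.9 and the shCtrl-labelled ones at 34.1 and 44.9 (difference 1.75, SE 0.26, limma adjusted p = 0.0286), with DMSO at 92.3 and 91.3. A region inside the dense stretch of chromosome 6, from 72085297 to 72085800, was at 93.6 and 89.5 against 22.6 and 44.9 (difference 1.83, SE 0.30, limma adjusted p = 0.0446), with DMSO at 88.6 and 88.5.

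Not every higher region had the shKDM4B-814-labelled libraries near DMSO. Chromosome 12 held 4 of the 15 and 2301 of the 43467 regions tested. Among the 4 was the region from 21226551 to 21227386, at 98.8 and 98.5 against 89.9 and 84.5. Its percentiles were 75.7 and 76.3 with DMSO, 99.9 in both shKDM4B-813-labelled libraries and 98.1 and 98.6 with QC6352, so DMSO was the lowest of the RH30 groups there. On chromosome 5 from 10284 to 10575, at the start of the chromosome, the values were 99.8 and 99.9 against 98.5 and 98.0, with DMSO at 79.6 and 67.7. The mean DMSO percentile was nearer to the shKDM4B-814-labelled than to the shCtrl-labelled mean in 8 of the 15. It lay below the shKDM4B-814-labelled mean in all 15 and above the shCtrl-labelled mean in 11. The shKDM4B-814-labelled percentiles of the 15 were 88.9 to 99.9. The choice of regions thus favoured a DMSO mean below them, and that count shows no difference from DMSO.

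The 14 regions that ranked lower were wider, 285 to 8356 bp (median 1458 bp). Of them 4 lay on chromosome 17 and 3 on chromosome 12, which held 2900 and 2301 of the 43467 regions tested. The smallest adjusted p was on chromosome 17 from 41381302 to 41382613, where the percentiles were 97.8 and 98.4 in the shKDM4B-814-labelled and 99.9 in both shCtrl-labelled libraries (difference −1.13, SE 0.11, limma adjusted p = 0.00151). A pair of further called regions lay within 100 kb of it, from 41399476 to 41401282 and from 41465733 to 41467170. In all 3 the mean percentile of both groups was above 98, so the step in rank was small. All 3 also ranked at 93.6 or above in every DMSO, QC6352 and shKDM4B-813-labelled library. The widest was on chromosome 12 from 57825522 to 57833877, at a mean percentile of 93.7 against 99.4 (difference −0.98, SE 0.15, limma adjusted p = 0.0329). There DMSO, at 99.98 in both libraries, stood above both groups. The other 2 on that chromosome, from 58602046 to 58603808 and from 58873112 to 58876308, lay less than 1.5 Mb from the widest. On chromosome 1 from 2584054 to 2586470, inside a window with many lost regions, the values were 92.6 and 96.3 against 99.7 and 99.6 (difference −1.07, SE 0.15, limma adjusted p = 0.0286). The largest difference was on chromosome 8 from 144940138 to 144941252. The values there were 75.6 and 74.0 against 98.5 and 97.3 (difference −1.39, SE 0.18, limma adjusted p = 0.0227). DMSO was at 29.2 in the first library and had no peak in the second. The next was on chromosome 17 from 21273722 to 21274301, at 77.9 and 72.3 against 95.2 and 98.2 (difference −1.20, SE 0.20, limma adjusted p = 0.0446), with DMSO at 83.5 and 81.7. The mean DMSO percentile was nearer to the shKDM4B-814-labelled mean in 12 of the 14, but in 10 it lay below the means of both groups. The shCtrl-labelled percentiles of the 14 were 95.2 to 99.96. Any library ranked well below that is nearer to the shKDM4B-814-labelled mean, so the count shows no likeness to it.

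**Figure D5:**
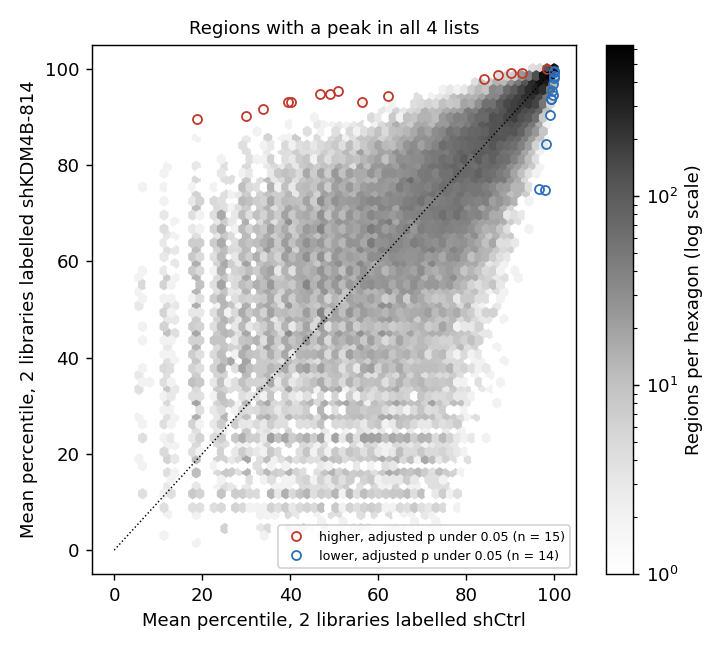
Mean percentile of the 2 libraries labelled shKDM4B-814 (vertical axis) against that of the 2 labelled shCtrl (horizontal axis) for the 43467 regions present in all 4 lists; grey hexagons give regions per bin on a log scale and circles the 15 higher and 14 lower regions with an adjusted p under 0.05. The lower regions sit at the right edge, and 10 of the higher regions lie far above the diagonal.

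Gaps in percentile, described with no test, were more common in the lower direction. Both shKDM4B-814-labelled libraries lay above both shCtrl-labelled libraries in 10137 regions and below them in 11226. The gap between the nearest libraries of the groups was over 20 percentile points in 1161 regions higher and in 2082 regions lower, and over 40 points in 148 and 452. The higher ones had a median width of 416 bp, 15.7% lay within 10 Mb of a chromosome end and 6.80% on chromosomes 16, 17, 19 and 22. For the lower ones these values were 1638 bp, 50.9% and 35.2%, against 643 bp, 23.4% and 15.9% of regions present in all 4. As with the gained and lost regions, the higher ones were narrower and lay less often near chromosome ends than the lower ones. Both were wider than the called regions of their direction, which had medians of 303 and 666 bp. In the DMSO libraries the median percentile was 66.0 and 65.0 for the higher and 38.2 and 39.4 for the lower regions, where they had a peak.

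Chromosome 17 had 398 of its 2900 always-present regions (13.7%) more than 20 points lower and 30 (1.03%) higher. Chromosome 22 had 13.5% lower and 1.07% higher. On chromosome 18, 5.44% were higher and 0.755% lower, and on chromosome 6, 3.96% and 0.922%. Over all 43467 always-present regions the shares were 2.67% higher and 4.79% lower.

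The regions with the widest gaps mostly missed the adjusted threshold. Of the 10 widest in the higher direction 1 passed, with limma adjusted p from 0.0441 to 0.0932, and of the 10 in the lower direction 0 passed (0.0683 to 0.0819). In the higher direction the widest gap was on chromosome 21 from 16372382 to 16372722. There the shKDM4B-814-labelled libraries were at 86.3 and 83.8 and the shCtrl-labelled libraries at 8.71 and 15.0. DMSO was at 50.2 and 49.5, the shKDM4B-813-labelled libraries were at 78.5 and 75.2, and QC6352 had no peak. On chromosome 1 from 91439934 to 91440290 the values were 85.2 and 80.8 against 8.71 and 15.0, with DMSO at 72.9 and 66.4 and the LHCN libraries at 57.3 to 80.4. All 10 had a peak in both DMSO libraries, and 7 had one in all 6 other RH30 libraries.

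In the lower direction the widest gap was on chromosome 17 from 74003024 to 74006829, a region of 3806 bp. The shKDM4B-814-labelled libraries were at 3.04 and 0.156 and the shCtrl-labelled libraries at 75.9 and 74.6. The DMSO libraries had no peak in 1 and 29.0 in the other, and QC6352 stood at 27.5 and 70.7. On chromosome 9 from 140346668 to 140348488 the values were 9.58 and 13.7 against 84.8 and 81.0, and here DMSO, at 64.7 and 66.4, was nearer to the shCtrl-labelled pair. On chromosome 12 from 132314698 to 132315401, 9.58 and 6.48 stood against 75.9 and 76.4, and all 4 LHCN libraries were far higher, at 95.8 to 98.5. It was the only one of the 10 with a peak in LHCN. Of the 10, 4 had no peak in either DMSO library and 3 had one in both.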

How the data were processed

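Sample titles gave the groups and replicate numbers. MACS2 2.1.1, SAMtools 1.3.1, Picard 1.65 and BWA 0.7.12-r1039 were used on hg19, per the submitters' processing notes. Not given in the sources used here were tool settings and any Tn5 shift. The authors deposited 1 narrowPeak list per library, with a fold value over background (a ratio) and −log10 p and −log10 q per peak. The deposited score was not used here. No filter for repeats, for poorly mapped sequence or for regions of high signal in any sample was applied here. Fold values are the authors' own and only describe peaks.

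Lists were trimmed to 93488 peaks by −log10 q (ties by fold and then by position) and merged at 1 bp overlap with Python 3.11.15 (numpy 2.4.6, pandas 2.3.3, scipy 1.17.1, matplotlib 3.10.9). Percentiles use mean ranks for ties, and −log10 q and fold gave one order. Graded ranks were fitted with limma 3.58.1 (trend, robust) in R 4.3.3. The calling rule and the fit were tested on simulated data. Coordinates are hg19, counted from 1.

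The comparison and its lists were chosen with earlier results of these data known. Chromosome groups, chromosome ends, the chromosome 6 stretch and the DMSO control were chosen after values were seen. Named were the 10 gained and 10 lost regions with the highest lower-of-2 percentile, the 10 higher and 10 lower with the widest gap, and the 5 windows with the most calls each way. Regions past the adjusted threshold were added after their values were seen. No annotation or sequence of hg19 was used here, so regions carry no gene names, and planned lists of genes, cell type markers, motifs and sequence content were not run. Alternatives covered list length, peak limits, ties, overlap, summit windows, scale, prior, replicate block, control and each library left out.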

Additional observations from a re-analysis of the deposited data

How the results depend on the processing

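Trimming by fold, dropping or shuffling tied peaks (10134 and 10171 gained, 9292 and 10196 lost), 50% coverage (10848 and 14850) and summit windows (11295 and 10577) kept the gained and lost counts within 1.5 times of 10270 and 10282. The lists as deposited gave 27472 lost. The 50000 strongest peaks gave 5589 gained and 4820 lost, a −log10 q of at least 10 gave 6048 and 3607, and strong against absent peaks gave 1756 and 1006. With DMSO as control 4725 were gained. Leaving out 1 library gave 15278 to 28679 gained and 13216 to 30299 lost. In the lists as deposited 70.3% of gained and 25.9% of lost regions had a peak with DMSO, and in the second QC6352 library 69.4% and 83.1%, the reverse of the trimmed order (56.7% and 48.5%). The causes were not tested.

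The graded counts of 15 higher and 14 lower regions stood on few libraries. They were 49 and 41 with the 50000 strongest peaks, 297 and 311 with a −log10 q of at least 10, 0 and 0 with limma on the percentile scale (3122 and 4100 at an unadjusted p under 0.05), 0 and 0 without trend and robust prior, and 10581 and 10616 with regions in 2 or more lists, where absent peaks counted as lowest. Leaving out 1 library gave 0 to 2426 higher and 0 to 1133 lower. With a replicate block they were 1140 and 1254, but same-numbered libraries did not deviate together (correlation 0.0298), so the numbers were not taken as pairs. Ranking by fold, summit windows and random ties gave 15 and 14. No alternative reversed the direction of a region with the widest gaps. Their choice fixed that in advance, since both libraries of one group lay above both of the other. Of the 10 widest gaps in each direction, 1 higher and 0 lower passed in the main fit. The region that passed, on chromosome 1 from 103659594 to 103660060, did not pass on the percentile scale or without trend and robust prior. The others all passed with a replicate block, and most of them with regions in 2 or more lists. Read depth, which the lists do not give, limits all of these counts.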
